A study of Mus musculus with 17 samples.

Results

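The genes described here are the MHC class I heavy chains and the machinery that loads them with peptide, in the kidney of diabetic db/db mice with and without dapagliflozin. The members were 10 genes taken by symbol from a table of 22558 genes, and all 10 were found: the heavy chains H2-K1, H2-D1 and H2-T23, the light chain B2m, the peptide transporter genes Tap1 and Tap2, the loading factors Tapbp and Calr, the peptide-trimming enzyme Erap1 and the transactivator Nlrc5. RNA of the whole kidney was sequenced, 1 library per mouse, in 3 groups of male mice. The Ctrl group was 5 C57BL/6 mice and the Case group 6 db/db mice (BKS.Cg-Dock7m +/+ Leprdb/J), which lack the signalling form of the leptin receptor, and both were given saline. The Dapa group was 6 db/db mice given dapagliflozin, which blocks glucose uptake by SGLT2 in the proximal tubule, at 1.0 mg/kg/day by oral gavage. In all 3 groups saline or drug was given for 6 weeks from 8 weeks of age. Strain background differed together with genotype, so diabetes and strain cannot be told apart in any comparison with Ctrl.

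Class I molecules carry short peptides of the cell's own proteins to the surface, where CD8 T cells and NK cells read them. A heavy chain folds with B2m in the endoplasmic reticulum, where calreticulin (Calr) holds it in a loading complex and tapasin (Tapbp) bridges it to the TAP1 and TAP2 transporter, which brings in peptides that ERAP1 then trims. Nearly all nucleated cells make class I molecules, kidney tubule cells among them. Interferons raise most of the set. IRF1 acts on the promoters, and NLRC5, itself induced by interferon-gamma, works at a composite promoter element made of S, X and Y boxes. The Y box is a CCAAT box read on the opposite strand and the X2 part of the X box resembles a cAMP response element.

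The promoters of the classical heavy chains and of B2m hold letters of the X2 part and of the Y box (the S box and the rest of the X box were not searched), and they are given here because these genes head the set and share letters at a fixed distance. RefSeq promoters (build GRCm38.p6, 250 bases before and 50 after each start, the C57BL/6 reference and not the animals studied) were found for 8 of the 10 members, all but Nlrc5 and Tap2. The stretches run 5′ to 3′ on the strand of the gene, H2-K1 at chr17:34000348-34000527 on the minus strand and B2m at chr2:122147507-122147685 on the plus strand. Capitals mark matches, on either strand, to an interferon element core (AANNGAAA, here TTTCACTT where it is read on the other strand), an NF-kB element (GGGGATTCC), an X2 core (TGACG) and a CCAAT box (CCAAT, or ATTGG on the other strand).
H2-K1: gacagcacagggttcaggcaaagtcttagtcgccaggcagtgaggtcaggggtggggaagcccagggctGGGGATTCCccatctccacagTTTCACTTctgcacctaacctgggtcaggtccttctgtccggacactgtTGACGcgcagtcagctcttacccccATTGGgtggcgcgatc
B2m: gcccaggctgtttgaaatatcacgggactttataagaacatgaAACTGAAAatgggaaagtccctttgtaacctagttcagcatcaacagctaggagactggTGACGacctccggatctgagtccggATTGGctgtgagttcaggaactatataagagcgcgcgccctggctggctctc

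In H2-K1, H2-D1 and B2m the X2 core was followed, after 20 bases, by the reverse CCAAT box. These 30-base elements lie at chr17:34000359-34000388 (H2-K1, minus strand), chr17:35262993-35263022 (H2-D1, plus strand) and chr2:122147609-122147638 (B2m, plus strand), with the X2 core and the reverse CCAAT box in capitals.
H2-K1: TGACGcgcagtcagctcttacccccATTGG
H2-D1: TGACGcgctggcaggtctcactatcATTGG
B2m: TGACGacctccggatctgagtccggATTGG
The H2-K1 and H2-D1 elements matched at 23 of 30 bases, H2-K1 and B2m at 13, and H2-D1 and B2m at 12, of which the capitals are 10. The distance was set after these promoters had been read. Over the table, 31 of 32851 promoters (0.0944%) held the same letter runs at that distance on either strand, in 27 genes that included H2-M3 but also, for example, the clock gene Per1.

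Upstream of these, H2-K1 and H2-D1 both held the NF-kB element and then, after 12 bases, an interferon element core. The pair lies at chr17:34000430-34000458 in H2-K1 and chr17:35262923-35262951 in H2-D1, and the capitals mark the NF-kB element and the reversed interferon element core.
H2-K1: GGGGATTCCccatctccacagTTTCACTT
H2-D1: GGGGATTCCccatctcctcagTTTCACTT
They differ at 1 of 29 bases. The interferon element core occurred in 23.9% of all promoters, the NF-kB element in 0.25%, the X2 core in 20.8% and the CCAAT box in 37.4%; matches could overlap one another. All 4 occurred together in 5 promoters (0.0152%), of which 2 are start sites of H2-K1 and the others belong to H2-D1, H2-Q7 and Kat5. Of the other members, Tap1 held the X2 core and a CCAAT box, H2-T23 held 2 interferon cores and 1 CCAAT box, Calr held 2 of each, Tapbp held 2 CCAAT boxes, and Erap1 held an interferon core at its start. A match is a description of letters in this window only.

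The libraries held 13039535 to 17779635 counts. Mitochondrial genes took 17.9% to 20.4% of the counts in Ctrl, 19.8% to 27.3% in Case and 19.7% to 27.6% in Dapa. Their part in the values below was not tested. Expression is given as FPKM, the authors' read count per kilobase of gene and scaled by the library total. Of the 17 libraries, 5 stood apart from the other 12 across the study groups: Ctrl 1, Ctrl 3, Ctrl 4, Case 6 and Dapa 7. They had 276 to 436 counts of Rps18 against 37 to 134 in the others, and 0.460 to 0.584 counts of H2-K1 per count of H2-D1 against 0.148 to 0.389. The set was drawn at the widest gap, as a ratio, in Rps18 counts. Of 12793 genes compared, 39 (Rps18 among them) separated the 5 libraries from the rest, both within Ctrl and within the db/db mice. Of these, 6 were among the 110 genes compared in the MHC stretch of chromosome 17, where H2-K1 and most of the members lie. How many genes would do so by chance was not tested, so the count of 39 is a description only. Where calls below change without these libraries, this is said beside them. Leaving them out leaves 2 Ctrl, 5 Case and 5 Dapa mice. Over all genes it took the calls from 1895 to 211 in Case against Ctrl and from 4260 to 1957 in Dapa against Ctrl. In Case against Ctrl most calls of any gene were so lost. For H2-K1 the values in and outside the set are given beside its results. C57BL/6 mice are known to carry a deletion that silences H2-Ea, yet H2-Ea-ps, the row at this locus, had 16.5 to 47.1 FPKM in the Ctrl mice. Its values were 12.3 to 326 in Case and 20.8 to 90.02 in Dapa, and the reason was not tested. Strain is given here as labelled, and whether the strain or MHC haplotype of each library is the labelled one was not tested. This bears on every heavy chain value. H2-Ea-ps was among the 39 genes, lower in the 5 libraries, with 0.333 to 0.478 counts per count of H2-Aa in them and 0.935 to 2.02 in the others.

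Levels between members were compared as counts per kilobase of annotated exon, scaled by library total, because the lengths behind the deposited FPKM values ran from 0.551 (Erap1) to 2.48 times (H2-K1) the length of the exons. On this scale, which is that of FPKM but with exon lengths, the Ctrl medians were 263 for B2m, 180 for Calr, 72.1 for H2-D1, 27.0 for H2-K1, 18.3 for Tapbp and 16.0 for H2-T23. Lower down came Erap1 with 5.501, Tap2 with 4.32, Tap1 with 1.32 and Nlrc5 with 0.703. H2-K1 had 10.9 to 14.5 FPKM in the 3 Ctrl libraries with high Rps18 and 6.04 to 6.74 in the other 2, so its place relative to Tapbp and H2-T23 depends on the libraries. The classical and nonclassical heavy chains lay well below their light chain, and the transporter and the transactivator were the scarcest members. Nlrc5 was read by 62 to 110 counts and Tap1 by 91 to 132 counts in a Ctrl kidney. Of all 50-base stretches in its annotated transcripts, H2-K1 shared 9.63% with other genes, H2-D1 12.8% and H2-T23 13.6%, mainly with other heavy chain genes and pseudogenes. Counts of the heavy chains can therefore include reads of relatives, and in mice with other MHC alleles than the reference this share is unknown.

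Whether the class I pathway differed in the diabetic kidney was asked by comparing Case with Ctrl. With a Benjamini-Hochberg adjusted p-value (q) under 0.05 by edgeR's quasi-likelihood test, 7 of the 10 members were higher in Case, against 6.09% of the 14582 genes tested, and none was lower, against 6.91%. The 7 were Tap1, Nlrc5, Tap2, H2-T23, B2m, Tapbp and Erap1, and the rises ran from 0.87 (Erap1) to 2.57 (Tap1) on the log2 scale. H2-D1 (q = 0.0726), H2-K1 (q = 0.945) and Calr (q = 0.704) did not pass. The median log2 fold change of the members was 1.12, beside 0.031 over all genes tested. With a fold of FPKM above 2 also required, 6 of the 10 passed, all but Erap1 of the 7, against 2.33% of genes higher by that rule. The calls were fragile. With limma on log2(FPKM + 1) or log2(FPKM + 0.1) 0 members were called, beside 1685 and 1733 of 16030 genes. Voom called 0 members and 2290 of 14582 genes. With a term for 7 libraries whose FPKM and counts did not match in a few entries, 3 members and 1219 of 14582 genes were called. None held when the 5 libraries with high Rps18 were left out, where 211 of 15171 genes were called, beside 1895 of 14582 with them. With a term of their own none held either, and 1144 of 14582 genes were called. Without these libraries Tap1 had a log2 fold change of 2.85 (q = 0.182) and Nlrc5 one of 2.64 (q = 0.245). With the term they had 2.09 (q = 0.131) and 1.69 (q = 0.333). With a single mouse left out, 1 call (Tap1) held without Ctrl 1, 2, 3 or 5, and 2 calls (Tap1 and Tap2) without Ctrl 4, Case 1, Case 3 or Case 5.

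**Figure D1:**
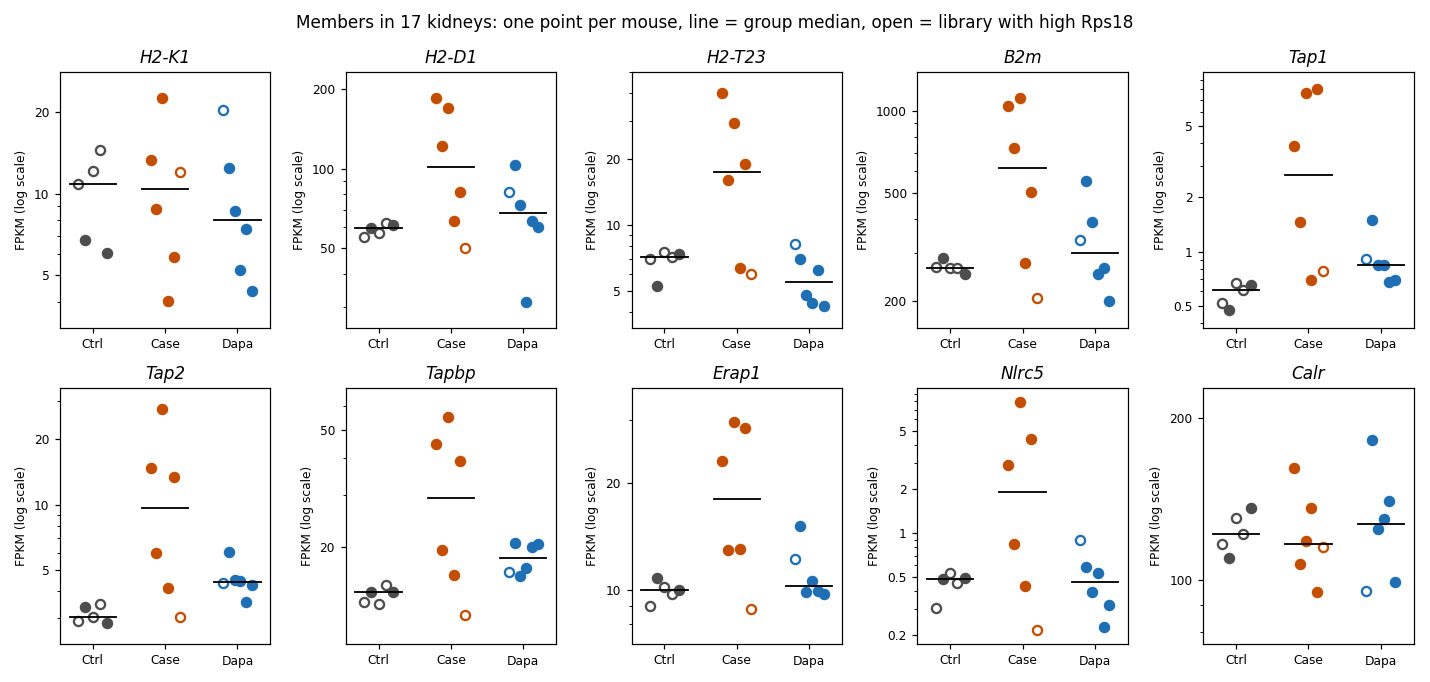
FPKM of the 10 members on log axes, with 1 point per mouse, a line at each group median and open points for the 5 libraries with high Rps18. The Ctrl mice lie close together for most members, the Case mice spread widely, with 4 mice high and Case 4 and Case 6 near the Ctrl mice, while Calr shows no such spread and H2-K1 has only Case 3 above every Ctrl mouse.

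Tap1, a subunit of the transporter, showed the largest rise. Tap1 (chromosome 17, 34187553 to 34197225, mm10, plus strand) had 0.519, 0.472, 0.670, 0.615 and 0.649 FPKM in Ctrl mice 1 to 5. In Case it ran from 0.697 through a median of 2.67 to 8.00. Every Case mouse was above every Ctrl mouse, as in 4.97% of genes tested, although the lowest Case value (Case 4) was close to the highest Ctrl value. The log2 fold change was 2.57 (SE 0.61, q = 0.0179), where SE is the log2 fold change divided by the square root of edgeR's F value. Tap2 (chromosome 17, 34203527 to 34216321, mm10, plus strand) had 2.92, 3.40, 3.04, 3.48 and 2.86 FPKM in Ctrl and 3.03, 9.69 and 27.4 as lowest, median and highest value in Case. Here 5 of 6 Case mice were above all Ctrl mice, and the rise was 1.76 (SE 0.46, q = 0.0270). Tap1 kept its call without each of the 11 mice in turn and Tap2 in 7 of those 11 fits.

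Nlrc5 (chromosome 8, 94472763 to 94527272, mm10, plus strand), the transactivator, had 0.309, 0.483, 0.529, 0.454 and 0.492 FPKM in the Ctrl mice. In Case the lowest value was 0.218, the median 1.90 and the highest 7.87. The groups overlapped, since Case 6 lay below every Ctrl mouse and Case 4 among them, while Case 1, 2, 3 and 5 lay above. The log2 fold change was 2.50 (SE 0.75, q = 0.0439), and the standard deviation in Case was 107% of the mean against 18.8% in Ctrl, the widest spread among the members in both groups apart from H2-K1 in Ctrl.

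B2m (chromosome 2, 122147686 to 122153083, mm10, plus strand), the light chain shared by all class I molecules, had 267, 287, 263, 263 and 251 FPKM in Ctrl and 204, 617 and 1111 as lowest, median and highest value in Case. Of the Case mice, 4 lay above all Ctrl mice, Case 4 lay among them and Case 6 below them. The rise was 1.17 (SE 0.36, q = 0.0495), which is near the threshold.

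The nonclassical heavy chain H2-T23 (Qa-1, which presents peptides to the CD94 and NKG2 receptors of NK cells) lies on chromosome 17, 36029773 to 36032855 (mm10, minus strand). It had 7.05, 5.30, 7.58, 7.14 and 7.42 FPKM in Ctrl and 5.96, 17.5 and 40.02 as lowest, median and highest value in Case. Case 4 and Case 6 fell within the Ctrl range and the other 4 Case mice above it. The log2 fold change was 1.40 (SE 0.42, q = 0.0445).

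The classical heavy chains, which present peptides to CD8 T cells, did not pass by this test, and the difference between them was not tested. H2-D1 (chromosome 17, 35262730 to 35267499, mm10, plus strand) had 55.4, 59.8, 57.2, 62.2 and 61.4 FPKM in Ctrl, and 50.01, 102 and 185 as lowest, median and highest value in Case. All Case mice but Case 6 were above all Ctrl mice, and the log2 fold change was 0.82 (SE 0.28) with a q of 0.0726. H2-D1 passed by DESeq2 (q = 0.0223), by edgeR's exact test (q = 0.0345), and without Case 4 (q = 0.0436) or Case 6 (q = 0.0274). H2-K1 (chromosome 17, 33996017 to 34000333, mm10, minus strand) had 10.9, 6.74, 12.1, 14.5 and 6.04 FPKM in Ctrl and 4.01, 10.43 and 22.5 as lowest, median and highest value in Case. Its log2 fold change was 0.05 (SE 0.37). H2-K1 moved with the 5 libraries with high Rps18: among Ctrl mice it had 10.9 to 14.5 FPKM in the 3 such libraries and 6.04 to 6.74 in the other 2. Among the other libraries alone it had 4.01 to 22.5 FPKM in 5 Case mice, and without the 5 libraries its log2 fold change was 0.66 (q = 0.599).

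Of the loading factors, Tapbp (chromosome 17, 33915899 to 33929288, mm10, plus strand) had 13.03, 14.1, 12.9, 14.9 and 14.1 FPKM in Ctrl and 11.8, 29.4 and 55.3 as lowest, median and highest value in Case. The rise was 1.07 (SE 0.33, q = 0.0487), with 5 of 6 Case mice above all Ctrl mice and Case 6 below them. Erap1 (chromosome 13, 74639872 to 74691875, mm10, plus strand) had 8.99, 10.8, 10.14, 9.73 and 9.98 FPKM in Ctrl and 8.78, 18.01 and 29.6 as lowest, median and highest value in Case. It rose by 0.87 (SE 0.26, q = 0.0476). Calr (chromosome 8, 84841850 to 84846934, mm10, minus strand), a general chaperone of glycoproteins as well as a loading factor, had 110 to 136 FPKM in Ctrl and 95.1 to 162 in Case. Its log2 fold change was -0.09 (SE 0.13).

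**Figure D2:**
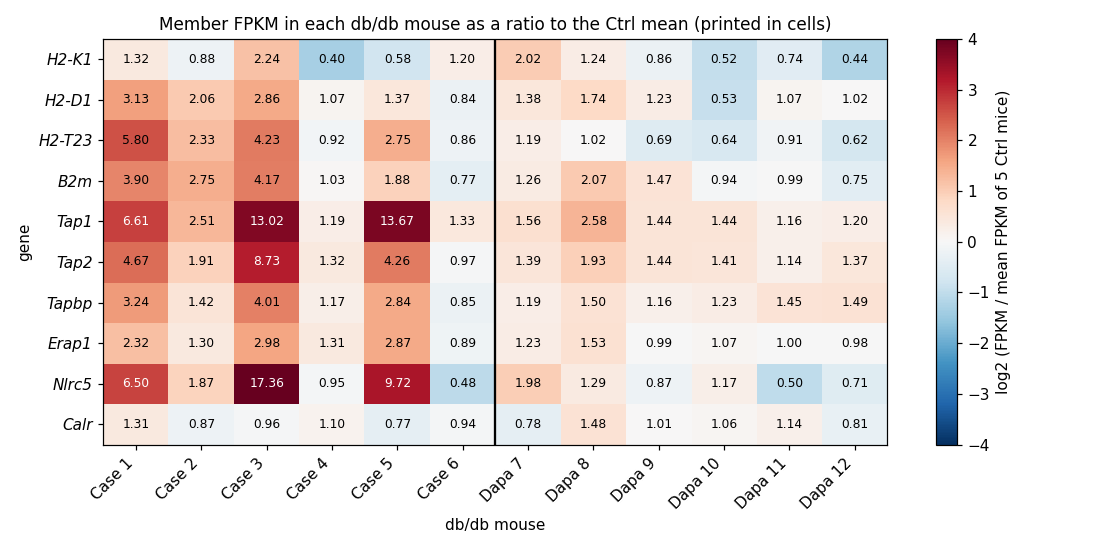
Ratio of each db/db mouse's FPKM to the mean of the 5 Ctrl mice, printed in each cell and coloured by its log2, for the 10 members (rows) and the 6 Case and 6 Dapa mice (columns, parted by the line). Case 3 reached 17.4 times the Ctrl mean for Nlrc5 and 13.02 times for Tap1, Case 6 had 0.481 times for Nlrc5, and the Dapa mice ranged from 0.437 times for H2-K1 to 2.58 times for Tap1.

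Mouse by mouse, the 8 members other than H2-K1 and Calr were above every Ctrl mouse in Case 1, 2, 3 and 5. In Case 5, H2-K1 ranked 14 and Calr 17 of the 17 mice. Case 3 had the highest value of all 17 mice in 6 of the 10 members (H2-K1, B2m, Tap2, Tapbp, Erap1 and Nlrc5), Case 1 in H2-D1 and H2-T23, and Case 5 in Tap1. In Case 1 and Case 3, 9 members exceeded every Ctrl mouse, and in Case 2 and Case 5 the number was 8. It was 5 in Case 4 and 1 (Tap1) in Case 6. The share of all genes above every Ctrl mouse in a single Case library was not counted, so these numbers have no background beside them. The Case mice also differed in degree: Case 2 had 1.87 times the Ctrl mean for Nlrc5 and 2.51 times for Tap1, while its B2m reached 2.75 times and H2-D1 2.06 times. Case 5 had 9.72 times for Nlrc5 and 13.7 times for Tap1, with 1.88 times for B2m and 1.37 times for H2-D1. Over the 12 db/db mice, Spearman's rho of FPKM for the 28 pairs among the 8 members other than H2-K1 and Calr ran from 0.594 to 0.937 with a median of 0.783. Calr had -0.175 to 0.175 with the other 9 members, and H2-K1 had 0.301 to 0.713 with those 8. These are descriptions, and values of different genes in 1 mouse share its library, its depth and its cell make-up.

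Whether dapagliflozin changed these genes in diabetic mice was asked by comparing Dapa with Case. By edgeR's quasi-likelihood test none of the 10 members passed in either direction, and neither did any of the 14573 genes tested (0.0% higher and 0.0% lower). At an unadjusted p under 0.05, 8 members were lower in Dapa, all but H2-K1 and Calr, against 6.66% of genes lower by that measure. With DESeq2, 2 members passed (Tap1 and H2-T23), as did 208 of 22105 genes. With edgeR's exact test 3 passed (Nlrc5, Tap1 and H2-T23), as did 125 of 14573 genes. The median log2 fold change of the members was -0.87, beside -0.0063 over all genes. The Case mice are the same as in the comparison with Ctrl, so the directions of these 2 comparisons are not independent.

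H2-T23 had the smallest adjusted p of the members, with 4.27, 5.52 and 8.21 FPKM as lowest, median and highest value in Dapa. Of the 6 Dapa mice, 3 lay below every Case mouse, and 4 Case mice (16.1 to 40.02 FPKM) lay above every Dapa mouse. The log2 fold change was -1.74 (SE 0.40, q = 0.179), and -2.05 (q = 0.0702) without the 5 libraries with high Rps18. Nlrc5 had 0.227, 0.462 and 0.896 FPKM in Dapa, all below Case 1, Case 3 and Case 5. Its log2 fold change was -2.47 (SE 0.71, q = 0.223). Tap1 had 0.678, 0.842 and 1.51 FPKM in Dapa and a log2 fold change of -2.02 (SE 0.55, q = 0.212).

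For Tap2 the Dapa mice had 3.58, 4.41 and 6.07 FPKM as lowest, median and highest value, and the log2 fold change was -1.32 (SE 0.42, q = 0.251). B2m had 199, 299 and 550 FPKM and a log2 fold change of -0.95 (SE 0.38, q = 0.322). H2-D1 had 31.4, 68.1 and 103 FPKM and a log2 fold change of -0.71 (SE 0.32, q = 0.375). Every member overlapped between Dapa and Case. Erap1 had a log2 fold change of -0.79 (SE 0.25, q = 0.251) and Tapbp one of -0.76 (SE 0.30, q = 0.325), while H2-K1 (-0.20, SE 0.41, q = 0.868) and Calr (0.05, SE 0.17, q = 0.923) had the smallest of the members. H2-K1 had 20.3 FPKM in Dapa 7, the Dapa library with high Rps18, and 4.39 to 12.4 in the other 5, and without the 5 libraries its log2 fold change was -0.50 (q = 0.590).

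**Figure D3:**
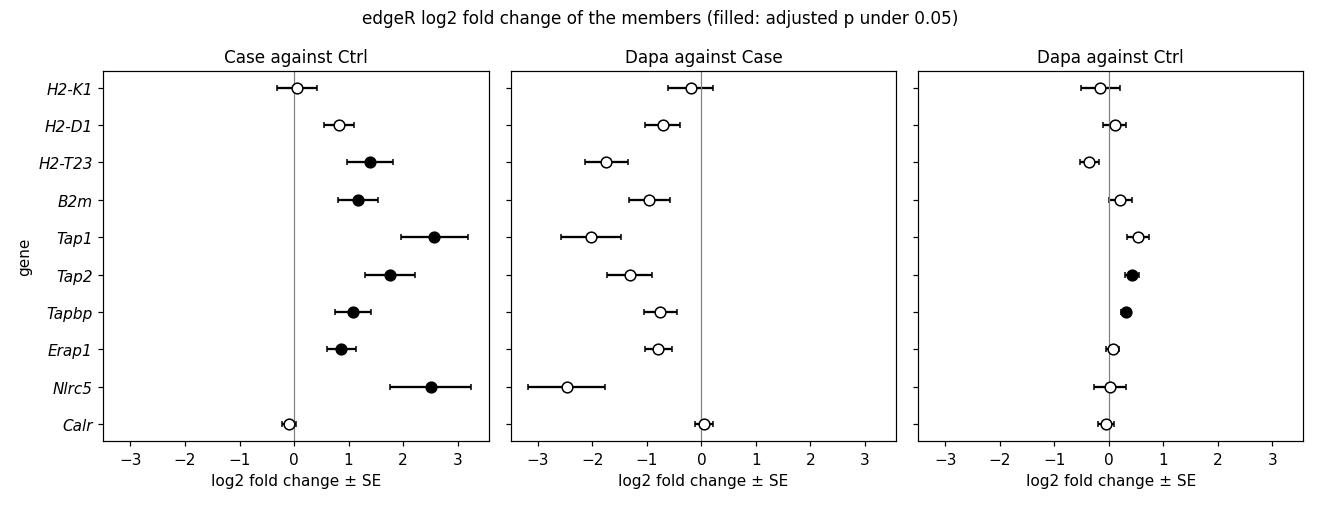
The log2 fold change of each member from edgeR's quasi-likelihood test with its SE, in the 3 comparisons, with filled points where q is under 0.05. In Case against Ctrl 7 points are filled, in Dapa against Case none is although 8 lie well below 0, and in Dapa against Ctrl only Tap2 and Tapbp are filled.

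Dapa was then compared with Ctrl, to see how the treated diabetic kidney differed from that of C57BL/6 mice. Of the members, Tap2 and Tapbp were higher in Dapa and none was lower, against 14.2% of 14647 genes higher and 14.9% lower, so 2 of 10 is close to the background. Tap2 rose by 0.43 (SE 0.12, q = 0.0215). Tapbp rose by 0.31 (SE 0.081, q = 0.0128), with 16.0, 18.5 and 20.7 FPKM as lowest, median and highest value in Dapa. For Tap1, Tap2 and Tapbp every Dapa mouse lay above every Ctrl mouse, as in 9.79% of genes tested. Tap1 had a log2 fold change of 0.54 (SE 0.20, q = 0.0613). Both calls were lost without the 5 libraries with high Rps18 (Tap2 0.45, q = 0.176, and Tapbp 0.32, q = 0.117), with a term for them, and in a fit of all 3 groups together. Without Ctrl 5 Tapbp alone passed, H2-T23 passed as lower without Dapa 7, and Tap1 passed without Dapa 11 or Dapa 12.

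The remaining members did not pass between Dapa and Ctrl. H2-T23 had a log2 fold change of -0.35 (SE 0.17, q = 0.127), and 3 of 6 Dapa mice lay below every Ctrl mouse. B2m had 0.21 (SE 0.21, q = 0.481), H2-D1 0.11 (SE 0.21, q = 0.729), Erap1 0.07 (SE 0.12, q = 0.673), Nlrc5 0.02 (SE 0.30, q = 0.962), Calr -0.04 (SE 0.15, q = 0.847) and H2-K1 -0.15 (SE 0.36, q = 0.781). Of the treated mice, Dapa 7, a library with high Rps18, had 9 members above every Ctrl mouse and Dapa 8 had 8. Dapa 12 had the fewest, 3 (Tap1, Tap2 and Tapbp). The share of all genes above every Ctrl mouse in a single Dapa library was not counted, so these numbers are descriptions only.

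The make-up of the heavy chain counts was followed per mouse over 22 heavy chain rows, H2-K1, H2-D1 and H2-T23 with 19 others. Their sum, in CPM scaled by TMM, was 396 to 503 in Ctrl, 375 to 1186 in Case and 293 to 613 in Dapa. H2-T23 took 9.09% to 12.3% of it in Ctrl, 9.58% to 21.7% in Case and 6.64% to 9.64% in Dapa. H2-D1 took 38.1% to 49.4% in Ctrl, 38.7% to 51.2% in Case and 32.8% to 51.7% in Dapa, so its share did not separate the groups. H2-K1 took 18.2% to 21.1% in the 3 Ctrl libraries with high Rps18 and 11.3% to 13.02% in the other 2, and 6.94% to 13.4% in the 5 Case mice without high Rps18. B2m had 0.455 to 0.656 counts per heavy chain count in Ctrl, 0.437 to 0.780 in Case and 0.458 to 0.754 in Dapa. Tap1 had 0.304 to 0.496 counts per count of Tap2 in Ctrl and 0.357 to 0.544 in Dapa, and in Case 0.369 to 0.608 except for Case 5, which had 1.31.

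**Figure D4:**
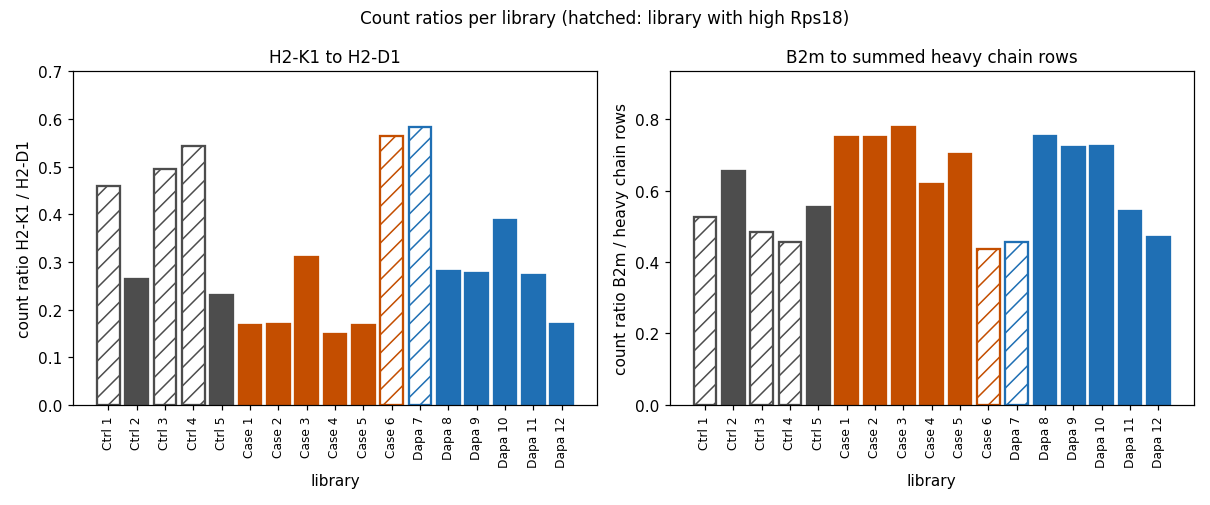
Counts of H2-K1 per count of H2-D1 (left) and of B2m per count of the 22 heavy chain rows (right) in each of the 17 libraries, with bars from 0 and hatched bars for the 5 libraries with high Rps18. The hatched bars are the 5 highest on the left, 0.460 to 0.584, and on the right include the 2 lowest of the db/db mice, Case 6 (0.437) and Dapa 7 (0.458).

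Genes around the members were read from lists. The immunoproteasome, whose subunits cut proteins into peptides suited to class I, gave 5 of 5 genes higher in Case than in Ctrl, where 6.09% of all genes were higher. Psmb8 rose by 3.10 (SE 0.77, q = 0.0205), Psmb10 by 2.56 (SE 0.60, q = 0.0161), Psmb9 by 2.55 (SE 0.70, q = 0.0319) and Psme2 by 1.05 (SE 0.24, q = 0.0143). Psmb8 had 1.19 to 2.39 FPKM in Ctrl and 1.57 to 40.3 in Case, where Case 4 and Case 6 were again within the Ctrl range. All 5 calls were lost without the 5 libraries with high Rps18. Between Dapa and Case none of the 5 passed by edgeR's quasi-likelihood test, with log2 fold changes from -0.71 (Psme1) to -2.91 (Psmb8), although 5 of 5 were lower at an unadjusted p under 0.05, as were 6.66% of all genes. There DESeq2 called 4 of them, beside 208 of 22105 genes, and edgeR's exact test 3, beside 125 of 14573 genes. None passed between Dapa and Ctrl, where the median was 0.24.

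Of 32 other heavy chain genes listed, 19 were in the table and 14 were tested. Between Case and Ctrl 2 of 14 were higher and none lower, against 6.09% and 6.91% of all genes (median log2 fold change 0.76): H2-T10 rose by 1.52 (SE 0.38, q = 0.0233) and H2-Q4 by 1.12 (SE 0.32, q = 0.0395). Between Dapa and Ctrl 3 of 14 were higher, where 14.2% of all genes were: H2-Q1 rose by 1.10 (SE 0.28, q = 0.0117), H2-T10 by 1.07 (SE 0.26, q = 0.00896) and H2-Q4 by 0.47 (SE 0.15, q = 0.0380). None of these 5 calls held without the 5 libraries with high Rps18, while a term for them kept H2-Q1 and H2-Q4 between Dapa and Ctrl. H2-Q1 was among the 39 genes that separated these libraries, and was lower in them. Between Dapa and Case none passed (median -0.53). Of the 50-base stretches of H2-T10, 32.9% occur in other genes, mainly H2-T22, and 21.8% of those of H2-Q4 and 15.0% of those of H2-Q1 do, so these values can include reads of relatives.

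Class I-like molecules, which resemble heavy chains but serve other tasks, did not move as one group. Of 5 tested, 2 were higher and 2 lower in Case, against 6.09% and 6.91% of all genes. Mr1, which presents vitamin B metabolites, rose in Case by 0.96 (SE 0.17, q = 0.00472), and Hfe, an iron regulator, rose by 0.91 (SE 0.11, q = 0.000441). Azgp1, a lipid-mobilizing factor, fell by 2.00 (SE 0.21, q = 0.000221), and Fcgrt, the neonatal Fc receptor, fell by 0.36 (SE 0.11, q = 0.0432). In Dapa against Ctrl the same 4 genes passed in the same directions, against 14.2% of all genes higher and 14.9% lower, with Mr1 at 1.07, Hfe at 0.48, Azgp1 at -1.83 and Fcgrt at -0.56. These comparisons share the Ctrl mice. Without the 5 libraries with high Rps18 Azgp1 and Hfe passed in Case, and all 4 genes in Dapa. Among 12 other genes of peptide supply and loading, Tapbpl, the tapasin-like peptide editor, rose by 1.59 in Case (SE 0.49, q = 0.0488) and Ide, a peptide-degrading enzyme, fell by 0.34 (SE 0.085, q = 0.0219), 1 of 12 in each direction, against 6.09% and 6.91% of all genes. In Dapa against Ctrl, 3 of 12 were lower, against 14.9% of all genes: Ide, Npepps and Sppl2a, by log2 fold changes of -0.46, -0.33 and -0.21. Without the 5 libraries, of these calls only that of Ide in Dapa held.

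Upstream of the members, genes of interferon signalling were compared between Case and Ctrl. Irf1 rose by 2.01 (SE 0.53, q = 0.0277), Stat2 by 1.14 (SE 0.32, q = 0.0375) and Nfkb1 by 0.34 (SE 0.10, q = 0.0477). None was called lower, and 6.09% of all genes were higher and 6.91% lower. The median log2 fold change of the 15 genes tested was 0.09, beside 0.031 over all genes. The interferon receptors and Jak1, Jak2 and Tyk2 did not pass. Irf1 had 1.01 to 2.41 FPKM in Ctrl, 1.45 to 17.3 in Case and 1.44 to 2.33 in Dapa, and the highest Case mice were Case 3 and Case 5. Between Dapa and Ctrl, 2 of 15 genes were higher, Stat2 (0.47) and Nfkb1 (0.29), and 3 lower, Irf9 (-0.42), Jak1 (-0.33) and Tyk2 (-0.31), where 14.2% of all genes were higher and 14.9% lower. Of these, Stat2 and Jak1 passed without the 5 libraries with high Rps18, and Jak1 alone with a term for them. Of the 8 genes of the enhanceosome that NLRC5 and CIITA join, Ciita, the class II transactivator, rose in Case by 3.51 (SE 0.89, q = 0.0237), 1 of 8 against 6.09% of all genes. In Dapa, compared with Ctrl, Nfya (-1.23, q = 0.000361) and Rfxank (-0.56, q = 0.00938) were lower, 2 of 8 against 14.9% of all genes. Between Dapa and Case, Irf1 (-1.86, q = 0.194) and Ciita (-3.34, q = 0.197) did not pass. Without the 5 libraries with high Rps18 the calls of Irf1, Stat2, Nfkb1 and Ciita in Case and that of Rfxank in Dapa were lost, and that of Nfya held.

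Interferon-gamma itself (Ifng) had no count in 14 of the 17 libraries, where a count of 0 allows up to 3 counts, and 6 counts in Case 3, 1 in Case 4 and 4 in Case 5. It was too scarce to be tested, and so was the other interferon gene in the table. H2-Ea-ps rose in Case by 2.35 (SE 0.68, q = 0.0394) and did not pass between Dapa and Case (-2.04, q = 0.250) or Dapa and Ctrl (0.31, q = 0.576). Its rise did not pass without the 5 libraries with high Rps18, which include 3 of the 5 Ctrl mice and in which this gene was lower. Of 12 class I receptors of T and NK cells 5 were tested between Case and Ctrl, and none passed.

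In whole kidney a gene can be higher because more cells of a type are present or because each cell holds more RNA, and these cannot be told apart here. Markers of T and NK cells were scarce: the 14 genes of the list summed to 2.13 to 3.24 FPKM in Ctrl, 0.798 to 4.43 in Case and 1.88 to 4.95 in Dapa, and Cd3d was at 0 in 8 of 17 libraries. Case 1, among the highest for the members, had the lowest T and NK sum, 0.798. Case 3, the highest of all mice in 6 members, had the highest sum of the Case mice, 4.43. Markers of macrophages (10 genes, of which Itgam has 2 rows) summed to 26.8 to 46.3 FPKM in Ctrl, 26.9 to 198 in Case and 24.7 to 61.0 in Dapa. The highest sum was that of Case 3, where Lyz2 had 99.3 FPKM, while Case 5, high for Nlrc5 and Tap1, had 30.6. None of the macrophage genes passed in any comparison. Their median log2 fold change was 0.51 in Case against Ctrl, beside 0.031 over all genes, and -0.47 in Dapa against Case, beside -0.0063. Their part in the members' values was not tested.

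The counts of called genes in the other cell type lists stand beside 6.09% of all genes higher and 6.91% lower in Case, and 14.2% higher and 14.9% lower in Dapa, each against Ctrl. B and plasma cells had 1 of 3 genes tested lower in Case (Jchain, -1.57, q = 0.0430) and dendritic cells had 1 of 4 lower in Dapa than in Ctrl (Clec9a, -1.68, q = 0.0289). The T and NK list had 1 of 3, Lck, higher in Dapa than in Ctrl (0.96, q = 0.0415), and no endothelial gene passed in any comparison. Proximal tubule markers, which are abundant in kidney, summed to 1845 to 2056 FPKM in Ctrl, 1227 to 2271 in Case and 1411 to 1847 in Dapa. Case 1, 2 and 3, high for most members, had 1333, 1504 and 1227, while Case 5, also high for Nlrc5 and Tap1, had 1825. Of the 6 genes 1 was lower in Case and 4 in Dapa. Lrp2 was lower in Case (-0.98, q = 0.00407) and in Dapa (-1.25, q = 0.000557) than in Ctrl, and Cubn (-0.70), Slc5a12 (-0.39) and Slc34a1 (-0.31) were lower in Dapa. Markers of other kidney cells summed to 596 to 1687 FPKM in Ctrl, 1020 to 2924 in Case and 1381 to 2171 in Dapa, with 2482, 1760 and 2924 in Case 1, 2 and 3 and 1020 in Case 5. The part of these markers in the members' values was not tested. Of the 6 genes, Aqp2 (0.78) and Nphs1 (0.59) were higher in Case than in Ctrl, and Aqp2 (1.44), Nphs1 (0.67) and Slc12a3 (0.40) in Dapa. Of the calls in this paragraph, those of Clec9a, Lrp2 and Nphs1 in Dapa held without the 5 libraries with high Rps18, and the others did not.

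Finally, genes whose FPKM ran most like that of Nlrc5 were ranked by Spearman's rho, as a description and with no test, among 11454 genes over all 17 mice and 11534 over the 12 db/db mice. Outside all lists the 5 closest over 17 mice were Gbp6 (0.897), Gbp3 (0.841), Nod1 (0.828), Gbp2 (0.826) and H2-DMb2 (0.814). Over the db/db mice they were Gbp6 (0.958), Iigp1 (0.951), Gbp10 (0.937), Limd1 (0.937) and Igtp (0.923). Gbp and Igtp genes encode interferon-inducible GTPases. Among the members, Erap1 came closest over 17 mice (rho 0.863, rank 2), followed by H2-T23 (rank 41), Tap2 (57), Tap1 (60), B2m (80), H2-D1 (136), Tapbp (206), H2-K1 (1880) and Calr (8611). Over the db/db mice Erap1 (rank 16), Tap1 (17) and Tap2 (34) stood nearest and Calr (8595) farthest.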

How the data were processed

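RNA of 17 whole kidneys (5 Ctrl, 6 Case, 6 Dapa) was analysed from 1 table, grouped by the sample labels. Per the labels and the study's methods, the authors used a stranded library kit and HISAT2 (genome mm10), and Stringtie gave the deposited read count of each gene. The deposited FPKM values were computed by the authors. They followed count, library total and 1 length per gene with deviations of at most 0.0882%, without TMM factors. 3 genes (Sirt1, Tgfb1, Bmp4) were not used because a line break split each entry. In these entries FPKM and count did not match in 7 libraries (tolerance 0.5%).

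Counts were compared with edgeR 4.0.16 in R 4.3.3 (TMM, filterByExpr, quasi-likelihood test, two-sided, Benjamini-Hochberg adjustment over all genes tested), each comparison on its own 2 groups, with limma 3.58.1 and DESeq2 1.42.0 as alternatives. The steps were checked on simulated data. Depth was 13039535 to 17779635 counts, and intervals from counts cover counting error only. The lowest chi-square per gene within a group was 14.2, so no library repeated another of its group. Nothing says that mice were housed or processed apart, so p-values measure the spread between these mice. Positions of genes are those of the table (mm10), exons those of GENCODE M21, and promoters those of RefSeq (GRCm38.p6). Tables and figures were made with Python 3.11.15, numpy 2.4.6, pandas 2.3.3 and matplotlib 3.10.9.

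The members and lists were chosen with earlier results of these data known. Named were all members, up to 4 called genes of each other list with the largest log2 fold change in Case against Ctrl and in Dapa against Ctrl, H2-Ea-ps, Irf1, Ciita and Ifng, and the 5 genes outside the lists most like Nlrc5 with a mean FPKM of at least 1. One gene that this rule names is not reported here. Protein sequences and ATAC-seq were not analysed here.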

Additional observations from a re-analysis of the deposited data

Results flagged for a closer look

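Of 30 combinations of member and group, 2 held a mouse far from the others of its group, by a gap to the nearest mouse that was large against the range of the group; chance flags about 1 in 20 groups. H2-T23 was lowest in Ctrl 2 with 5.30 FPKM, while the next lowest Ctrl mouse had 7.05, a gap of 0.765 of the range. Tap1 was highest in Dapa 8 with 1.51 FPKM, while the next highest Dapa mouse had 0.911, a gap of 0.720 of the range. Ctrl 2 is not among the 5 libraries with high Rps18, and neither is Dapa 8.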

How the results depend on the processing

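Of the 7 members called between Case and Ctrl, 4 were called with no filter, 3 with a term for the 7 libraries with unmatched entries, and 0 by limma on log2(FPKM + 1), by limma on log2(FPKM + 0.1) or by voom with sample weights. Chosen after seeing the data, a term for the 5 libraries with high Rps18 and leaving them out each gave 0. DESeq2 and edgeR's exact test each called 8, beside 2613 of 21666 and 2239 of 14582 genes. With no filter 1572 of 21713 genes were called. Leaving out single mice gave 1 to 8 members, beside 1002 to 2154 genes. Between Dapa and Case, where 0 were called, DESeq2 called 2, the exact test 3, and leaving out single mice 0. Between Dapa and Ctrl the 2 calls became 0 in a fit of all 3 groups, with a term for the 5 libraries, without them, and with a fold above 2 required, and 1 to 3 without single mice. Over all genes, the 1895 calls of Case against Ctrl became 211 and the 4260 of Dapa against Ctrl 1957 without the 5 libraries.

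With the replicate block, 2 members (B2m and Tap1) were called between Case and Ctrl and the block took all calls from 1895 to 707. Replicate numbers did not pair the mice: correlations of same-numbered mice were -0.0586 to -0.0134. No paired analysis was possible because the groups share no numbers in the comparisons with Dapa.

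Directions turned only for log2 fold changes that had not passed. H2-K1 between Case and Ctrl was -0.15 by voom, -0.13 with the block and -0.25 to 0.23 without single mice. Without single mice, H2-K1 between Dapa and Case ran from -0.55 to 0.099 and Calr from -0.069 to 0.15. Between Dapa and Ctrl, a term for the 5 libraries gave H2-K1 0.31, and leaving them out gave H2-K1 0.15, Erap1 -0.012, Nlrc5 -0.33 and Calr 0.038. Voom gave H2-D1 -0.10 and Nlrc5 -0.21, the term for the 7 libraries Nlrc5 -0.082, and both limma fits Calr 0.034. Without single mice, the ranges were -0.50 to 0.0085 (H2-K1), -0.036 to 0.26 (H2-D1), -0.027 to 0.12 (Erap1), -0.22 to 0.18 (Nlrc5) and -0.16 to 0.039 (Calr). The cause was not tested. Depth limits scarce genes such as Nlrc5 and Ifng.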
